A study of Mus musculus with 8 samples.

Results

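The 37 genes described here carry the names of nuclear-encoded subunits of respiratory complex I, and they were chosen by name alone from the 37982 genes of the authors' deposited table. The rule took each gene symbol made of Ndufa, Ndufb, Ndufc, Ndufs, Ndufv or Ndufab followed by a number, so assembly factors and Ndufa4l2 stayed out. RNA came from C57BL/6 mouse ventricles, freed of the atria, at postnatal day 7. The labels give 8 samples in 3 genotypes, with 2 wild type, 3 double mutant and 3 triple mutant samples. As known from the study, the double mutant carries altered Mkl2 and Myh7, and the triple mutant carries altered Nkx2-5 as well, the alteration that the design text calls the modifier. Mkl2 is a partner of serum response factor, Myh7 is the slow (beta) myosin heavy chain, and Nkx2-5 is a cardiac transcription factor. The genotype label reads double or triple mutant and the sample titles use the codes mkmy and mkmyn. The labels do not state alleles, zygosity, sex, or whether each sample is 1 heart.

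Complex I, the NADH:ubiquinone oxidoreductase, is the entry point of electrons from NADH into the respiratory chain of the inner mitochondrial membrane. It is L-shaped. The peripheral arm in the matrix holds a flavin and a chain of iron-sulfur clusters that carry electrons from NADH to ubiquinone, and the membrane arm pumps protons. The core subunits of the peripheral arm are encoded in the nucleus, those of the membrane arm in mitochondrial DNA, and many accessory subunits, all nuclear, surround them. Heart muscle is rich in this complex, and in the mouse its oxidative metabolism matures in the weeks after birth.

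Each gene has 1 FPKM per group in the authors' deposited table. FPKM scales fragment counts by the length of the transcript and the size of the library, so levels can be roughly set beside each other between genes. Shared loci and near-identical gene copies, named below, limit this for some genes, and the normalization used is not stated. There are no values per sample, so no spread between hearts can be given, the read depth is unknown, and the overlap of samples between groups cannot be seen. A gene is called here when the q-value of the authors' own Cuffdiff test lies under 0.05, a q-value being a p-value adjusted over the tested genes of all 3 comparisons. All 37 genes were tested in every comparison.

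In a bulk sample fewer cells of a type and less RNA per cell cannot be told apart. The cardiomyocyte markers could not be compared between groups. All 9, Tnnt2 and Myh6 among them, lack an estimate in every comparison (the mark for loci with too many fragments). Of these, Tnni3 alone holds a group value, an FPKM of 1855 for wild type. The atrial marker Myl7 was close to 0 in the authors' deposited table, with an FPKM of 0.13 for wild type, 0.137 for double mutants and 0.136 for triple mutants. Sln was at 0.19, 0 and 0.149 there, in the same order. Myl4 was higher, at 7.3, 7.95 and 9.88, and Nppa higher still, at 919, 505 and 829. The 4 atrial markers thus did not all lie near 0. The brown fat marker Ucp1, a gene of another mitochondria-rich tissue, stood at 0.072, 0.0663 and 0 there, in the same order. The other brown fat marker, Cidea, was not near 0, at 9.51, 11.1 and 11.3.

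Before the values, the upstream sequences of 4 genes are given. Ndufa4, Ndufa10 and Ndufs4 were called in both comparisons with wild type, and Ndufc2 was the member called between the triple and the double mutant. Each sequence is the 250 bases before the annotated start in RefSeq, build GRCm38.p6, 5′ to 3′ on the strand of the gene. Capitals mark the letters AAGTG, the core of the NKX2-5 binding motif, or its reverse complement CACTT. The windows lie at chr6:11907451-11907700 (minus strand), chr1:92473759-92474008 (minus), chr13:114388095-114388344 (minus) and chr7:97399753-97400002 (plus).
Ndufa4: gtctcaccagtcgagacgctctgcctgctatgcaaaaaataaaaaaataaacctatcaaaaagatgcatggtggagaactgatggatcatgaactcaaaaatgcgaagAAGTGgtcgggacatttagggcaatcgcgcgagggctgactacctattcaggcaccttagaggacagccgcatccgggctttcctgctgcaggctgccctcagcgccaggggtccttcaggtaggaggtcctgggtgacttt
Ndufa10: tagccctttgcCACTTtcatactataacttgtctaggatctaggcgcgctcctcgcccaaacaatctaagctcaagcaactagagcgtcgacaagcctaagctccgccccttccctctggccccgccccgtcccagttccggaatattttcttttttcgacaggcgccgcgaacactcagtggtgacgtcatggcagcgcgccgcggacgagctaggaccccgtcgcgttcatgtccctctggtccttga
Ndufs4: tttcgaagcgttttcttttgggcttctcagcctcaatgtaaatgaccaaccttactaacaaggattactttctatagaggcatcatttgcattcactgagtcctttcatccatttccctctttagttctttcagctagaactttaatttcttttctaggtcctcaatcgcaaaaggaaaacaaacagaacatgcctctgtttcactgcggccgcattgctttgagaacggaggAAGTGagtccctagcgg
Ndufc2: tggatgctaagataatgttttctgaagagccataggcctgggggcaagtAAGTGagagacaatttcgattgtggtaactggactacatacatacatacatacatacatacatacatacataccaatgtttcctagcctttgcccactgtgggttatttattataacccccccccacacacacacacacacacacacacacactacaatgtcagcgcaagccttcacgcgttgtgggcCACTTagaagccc

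Ndufc2 held 2 matches and the other 3 genes held 1 each. Over windows of 300 bases, reaching 50 bases past the start, 17 of the 33 complex I genes in the RefSeq table held the motif, or 51.5%, against 49.99% of all 27025 genes in the table. A match to 5 letters is thus as frequent in these windows as elsewhere, and it is a match of letters, not a site.

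Motifs of factors that are known to regulate respiratory genes were searched in the same windows on both strands. The YY1 letters AAGATGGC stood in 7 of 33 complex I genes (21.2%) and in 3.19% of all genes, a set that includes noncoding genes. All 7 matches lay on the strand of the gene, 22 to 38 bases after the start. The letters contain an ATG, so a start codon followed by GC can fall within them. The 7 matches are shown in capitals within 24 bases each, since they share this position. In GRCm38.p6 they lie at chr7:3617387-3617410 (plus strand) for Ndufa3, chr6:126849100-126849123 (minus strand) for Ndufa9, chr19:44555393-44555416 (minus strand) for Ndufb8, chr3:51408918-51408941 (minus strand) for Ndufc1. The others lie at chr13:114388045-114388068 (minus strand) for Ndufs4, chr13:73328434-73328457 (minus strand) for Ndufs6 and chr10:80249465-80249488 (plus strand) for Ndufs7.
Ndufa3: ccaagaacAAGATGGCcgggagta
Ndufa9: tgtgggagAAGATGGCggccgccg
Ndufb8: gcggagaaggtgAAGATGGCtgcc
Ndufc1: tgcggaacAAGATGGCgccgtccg
Ndufs4: gcctacaggAAGATGGCggcggtc
Ndufs6: tcaccggcAAGATGGCggcggtgc
Ndufs7: ccgaggccAAGATGGCggcgctgg

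The genes with the YY1 letters had a median log2 fold change of 0.29 between double mutant and wild type, and the 26 without them one of 0.34. Both subsets thus lay above 0. The NRF1 letters GCGCATGC occurred in 3 of 33 complex I genes and 3.05% of all genes, the GABPA letters CCGGAAG in 4 of 33 and 9.93%, and the ERR letters AAGGTCA in 3 of 33 and 5.38%. The ERR matches were in Ndufb2, Ndufb4 and Ndufs5, whose log2 fold changes between triple and double mutant were -0.26, -0.65 and -0.55 in the authors' deposited table, none of them called. Between double mutant and wild type the median was 0.31 both with and without the ERR letters. Of these 3 genes Ndufb2 lies in a shared locus and Ndufb4 has a low level. A link between any of the motifs and the changes was not tested. The mRNA levels of these factors are given with the pathway genes further on.

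Levels differed widely between subunits that the assembled complex holds in fixed proportion. Wild type ventricle spanned an FPKM of 5.15 to 341 over the 37 genes, with a median of 60.7. Double mutants spanned 6.16 to 619.9 with a median of 83.4, and triple mutants 5.81 to 449 with a median of 73.9. The summed FPKM was 3140 for wild type, 4148 for double mutants and 3732 for triple mutants. Ndufc2 was highest by mean FPKM over the groups, followed by the flavoprotein subunits Ndufv2 and Ndufv1, and Ndufa3, Ndufb4 and Ndufa11 were lowest.

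**Figure D1:**
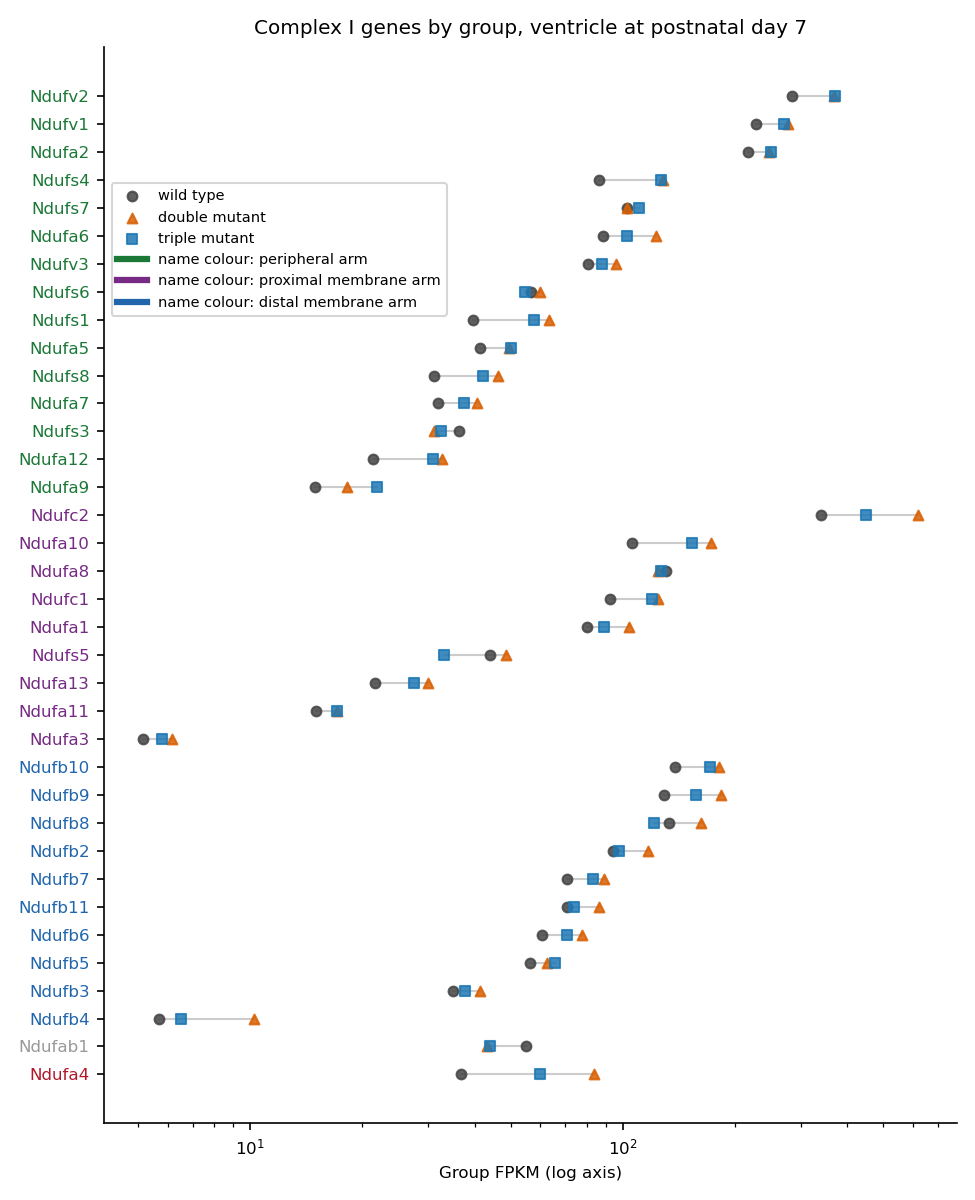
FPKM of 36 of the 37 complex I genes on a log axis, with circles for wild type, triangles for the double mutant and squares for the triple mutant. Each point is the single value per gene and group, so there are no error bars. Names are coloured by arm, and a grey line joins the lowest and highest group. In 24 of the genes drawn the square lies between circle and triangle with the triangle highest.

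The groups fell in the same order in most genes. Wild type was lowest, the triple mutant intermediate and the double mutant highest in 25 of 37. Wild type was lowest and the triple mutant highest in 6, namely Ndufa2, Ndufa5, Ndufa9, Ndufb5, Ndufs7 and Ndufv2. Wild type was highest in Ndufa8, Ndufab1 and Ndufs3, and the triple mutant was lowest in Ndufb8, Ndufs5 and Ndufs6. The 3 comparisons share their groups, so this order is a description and the comparisons do not count as independent of each other.

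Double mutants can also be set against wild type, a comparison that the design text does not name but the authors' deposited table holds. Complex I genes rose in 7 cases and fell in none. Those that rose were the membrane arm genes Ndufc2, Ndufa10 and Ndufb9, the peripheral arm genes Ndufs4, Ndufs8 and Ndufa12, and Ndufa4, which is now counted as a subunit of cytochrome oxidase. Their changes ran from 1.42-fold for Ndufb9 to 2.27-fold for Ndufa4. Over all 37 genes the median log2 fold change was 0.33, a factor of 1.25, beside -0.003 over the 13034 genes tested.

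The share of complex I genes called was 18.9%, against 2.65% of all tested genes, and the share called higher among all tested genes was 1.89%. Positive log2 fold changes were listed for 34 of the 37 genes, or 91.9%, against 49.5% of all tested genes. An unadjusted p-value under 0.05 was listed for 16 complex I genes, all of them higher, or 43.2%, against 16.3% of all tested genes. The values carry a limit that touches every call here. The deposited p-values are smaller than the two-sided normal p-values of the deposited test statistic for 99.7% of tests, and when the latter are adjusted instead, no complex I gene is called in any comparison. Unadjusted, these normal p-values lie under 0.05 for 7, 3 and 1 complex I genes in the order double mutant to wild type, triple mutant to wild type, triple to double mutant, beside 2.57%, 1.4% and 1.14% of all tested genes with a statistic. The share of genes called after adjustment is 0.0694%, 0.0387% and 0.0313% in that order, out of all tested genes with a statistic.

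**Figure D2:**
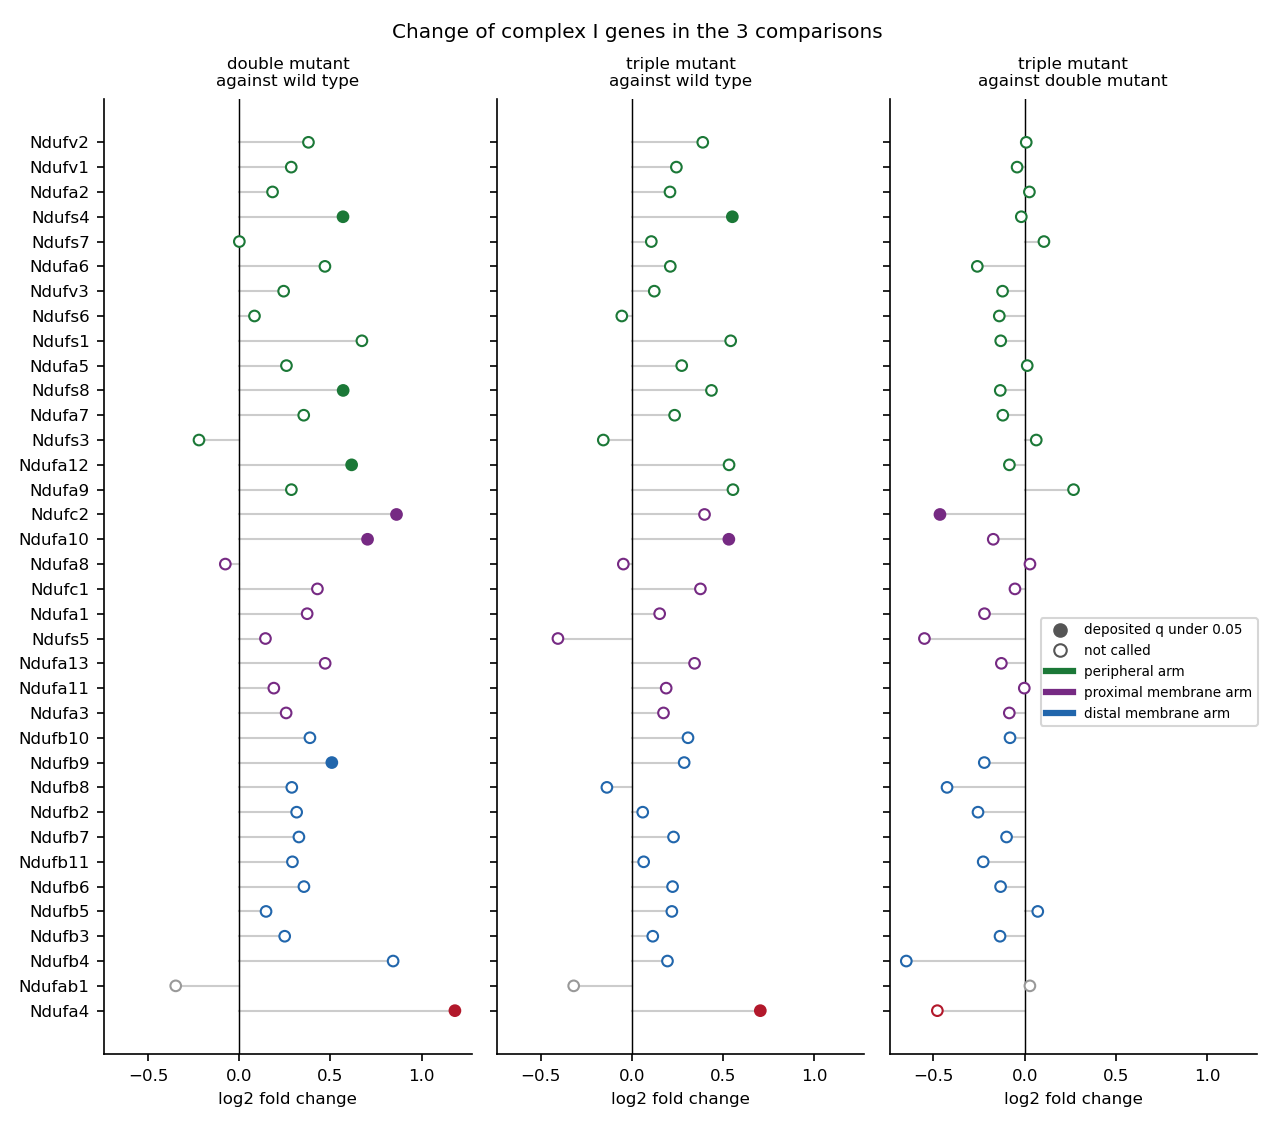
The log2 fold change of 36 of the 37 complex I genes in the authors' deposited table, 1 panel per comparison, filled where the deposited q-value is under 0.05 and coloured by arm (grey Ndufab1, red Ndufa4). Filled points number 7, 3 and 1 from left to right. Each point is a single value, so there are no error bars.

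Within the peripheral arm, the 16 genes had a median log2 fold change of 0.32 between double mutant and wild type, 15 of them positive and 3 called. Ndufs8 encodes a core subunit that carries iron-sulfur clusters close to the quinone site, at mm9 chromosome 19, 3908870 to 3912717. In the authors' deposited table its level was 31.2 FPKM for wild type, 46.3 for double mutants and 42.2 for triple mutants, and it rose 1.48-fold in the double mutant (q = 0.0271). Ndufs4, an accessory subunit of the NADH-oxidising module whose loss in people and mice gives a Leigh-like disease, lies at chromosome 13, 115078003 to 115178302. The authors' deposited table lists it at 86.2 FPKM for wild type, 128 for double mutants and 126 for triple mutants, a rise of 1.48-fold in the double mutant (q = 0.0114). Both mutants thus stood above wild type in this gene, and their log2 fold change to each other was -0.02.

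Ndufa12, an accessory subunit of the same arm (chromosome 10, 93661700 to 93684188), had a level of 21.3 FPKM for wild type, 32.7 for double mutants and 30.9 for triple mutants in the authors' deposited table and rose 1.53-fold in the double mutant (q = 0.0271). Ndufa6, a subunit of the LYR motif family, stood at 88.4 FPKM for wild type, 122 for double mutants and 102 for triple mutants there, with q = 0.068 for the double mutant against wild type, just short of a call.

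Further core subunits were listed as follows in the authors' deposited table. Ndufv1, which binds the flavin and NADH, was at 228 FPKM for wild type, 278 for double mutants and 269.9 for triple mutants (log2 fold change 0.29 for double mutant against wild type, q = 0.388). Its partner Ndufv2, in a locus shared with U6, was at 284 FPKM for wild type, 369 for double mutants and 371 for triple mutants (0.38, q = 0.136). Both flavoprotein genes were thus among the highest in every group and lower in wild type than in either mutant, without a call.

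Ndufs1, the largest subunit and a carrier of iron-sulfur clusters, had a level of 39.6 FPKM for wild type, 63.1 for double mutants and 57.6 for triple mutants in the authors' deposited table, with a log2 fold change of 0.67 (q = 0.262). That fold is near those of the called genes, yet its locus is listed with the same coordinates for 5 other features, Ino80d among them, so its reads could have been split or joined. Ndufs7, an iron-sulfur subunit at the quinone pocket, was at 103 FPKM for wild type, 103 for double mutants and 111 for triple mutants in the authors' deposited table (0.00, q = 0.998), the core gene with the smallest difference. Ndufs3, in a locus shared with Kbtbd4 and Ptpmt1, was at 36.3 FPKM for wild type, 31.2 for double mutants and 32.6 for triple mutants there (-0.22, q = 0.891) and was the core gene with the opposite sign.

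The 7 core genes had a median log2 fold change of 0.38, and the 29 accessory genes, Ndufa4 left aside, one of 0.31. The remaining peripheral arm genes, Ndufa2, Ndufa5, Ndufa7, Ndufa9, Ndufs6 and Ndufv3, had log2 fold changes between 0.08 (Ndufs6) and 0.35 (Ndufa7) in the authors' deposited table, none called. Ndufa9, a subunit at the junction of the arms, was at 14.9 FPKM for wild type, 18.2 for double mutants and 21.9 for triple mutants there (q = 0.527).

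The 9 genes of the proximal membrane arm had a median of 0.37, with 8 positive and 2 called. Ndufc2, a small accessory membrane subunit (chromosome 7, 104548513 to 104556312, a locus listed also for Gm16053), had the highest FPKM of the 37 genes in every group. Its level in the authors' deposited table was 341 FPKM for wild type, 619.9 for double mutants and 449 for triple mutants, a rise of 1.82-fold in the double mutant (q = 0.0066). Ndufa10, an accessory subunit related to nucleoside kinases (chromosome 1, 94335587 to 94370437), was at 106 FPKM for wild type, 173 for double mutants and 153 for triple mutants there and rose 1.63-fold (q = 0.0066). In both genes the triple mutant lay between the other groups.

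Ndufa8, a twin-cysteine subunit of the intermembrane space face, was at 131 FPKM for wild type, 124 for double mutants and 127 for triple mutants in the authors' deposited table (log2 fold change -0.08, q = 0.927) and was the proximal gene with a negative sign. Ndufa13, also known as Grim19, had a level of 21.6 FPKM for wild type, 30.0 for double mutants and 27.5 for triple mutants there (q = 0.165), in a locus shared with Tssk6. Ndufa3 and Ndufa11 were low, at 5.15 FPKM for wild type, 6.16 for double mutants and 5.81 for triple mutants and at 15.0 FPKM for wild type, 17.1 for double mutants and 17.1 for triple mutants in the authors' deposited table. Ndufc1, Ndufa1 and Ndufs5 had log2 fold changes of 0.43, 0.37 and 0.14 in that table, none called.

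All 10 genes of the distal membrane arm had a positive log2 fold change, with a median of 0.32 and 1 call. This was Ndufb9, another LYR motif subunit (chromosome 15, 58765365 to 58771044), at 129 FPKM for wild type, 183 for double mutants and 157 for triple mutants in the authors' deposited table, which rose 1.42-fold (q = 0.0214). Ndufb4 had a larger fold at a low level. It was at 5.69 FPKM for wild type, 10.2 for double mutants and 6.52 for triple mutants there (log2 fold change 0.84, q = 0.179), and near-identical gene copies such as Ndufb4b make its value uncertain. Ndufb10 was at 138 FPKM for wild type, 181 for double mutants and 171 for triple mutants and Ndufb8 at 133 FPKM for wild type, 162 for double mutants and 121 for triple mutants in the authors' deposited table, neither called (q = 0.288 and 0.591). The locus of Ndufb8 is shared with Gm20538 and Sec31b. The other 6, Ndufb2, Ndufb3, Ndufb5, Ndufb6, Ndufb7 and Ndufb11, lay between 0.15 (Ndufb5) and 0.35 (Ndufb6) on the log2 scale of that table.

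Ndufa4 had the largest change of all. Its level was 36.8 FPKM for wild type, 83.4 for double mutants and 59.9 for triple mutants in the authors' deposited table, a 2.27-fold rise in the double mutant (q = 0.0066), at chromosome 6, 11850373 to 11857446. Ndufab1, the mitochondrial acyl carrier protein, which serves fatty acid synthesis and iron-sulfur cluster assembly as well as complex I, stood apart. It was at 54.8 FPKM for wild type, 43.0 for double mutants and 43.9 for triple mutants there, with the lowest log2 fold change of the 37 genes (-0.35, q = 0.563), and was not called.

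Triple mutants were set against wild type, per the design text, to find genes that differ in diseased hearts. Ndufa4, Ndufa10 and Ndufs4 rose and no complex I gene fell. By the authors' deposited table Ndufa4 rose 1.63-fold (q = 0.0184), Ndufa10 1.45-fold (q = 0.0066) and Ndufs4 1.46-fold (q = 0.0114). The median log2 fold change was 0.22, a factor of 1.17, beside -0.0026 over all 12986 tested genes.

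These 3 calls are 8.11% of the complex I genes, against 1.52% of all tested genes called and 1.16% called higher. Positive values were listed for 31 of 37 genes, or 83.8%, against 49.6% of all tested genes. An unadjusted p-value under 0.05 was listed for 12 complex I genes, all higher (32.4%), against 12.1% of all tested genes. Ndufa12 (log2 fold change 0.53, q = 0.0561) and Ndufa9 (0.55, q = 0.0607) had folds in the authors' deposited table as large as those of Ndufa10 and Ndufs4 but q-values just above the threshold.

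By arm, the median log2 fold change between triple mutant and wild type was 0.26 in the peripheral arm, with 14 of 16 genes positive. It was 0.19 in the proximal membrane arm, with 7 of 9 positive, and 0.21 in the distal membrane arm, with 9 of 10 positive and none called. The core genes had a median of 0.37 and no call. Among them Ndufs8 was at 0.44 (q = 0.155), Ndufv2 at 0.39 (q = 0.126) and Ndufs3 at -0.16 (q = 0.932) on the log2 scale of the authors' deposited table.

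The lowest value in this comparison belonged to Ndufs5, a twin-cysteine subunit of the intermembrane space side (chromosome 4, 123389953 to 123395445). Its level was 44.0 FPKM for wild type, 48.6 for double mutants and 33.2 for triple mutants in the authors' deposited table, a log2 fold change of -0.41 to wild type (q = 0.568). Ndufab1 followed with -0.32 (q = 0.652) there. Neither was called.

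**Figure D3:**
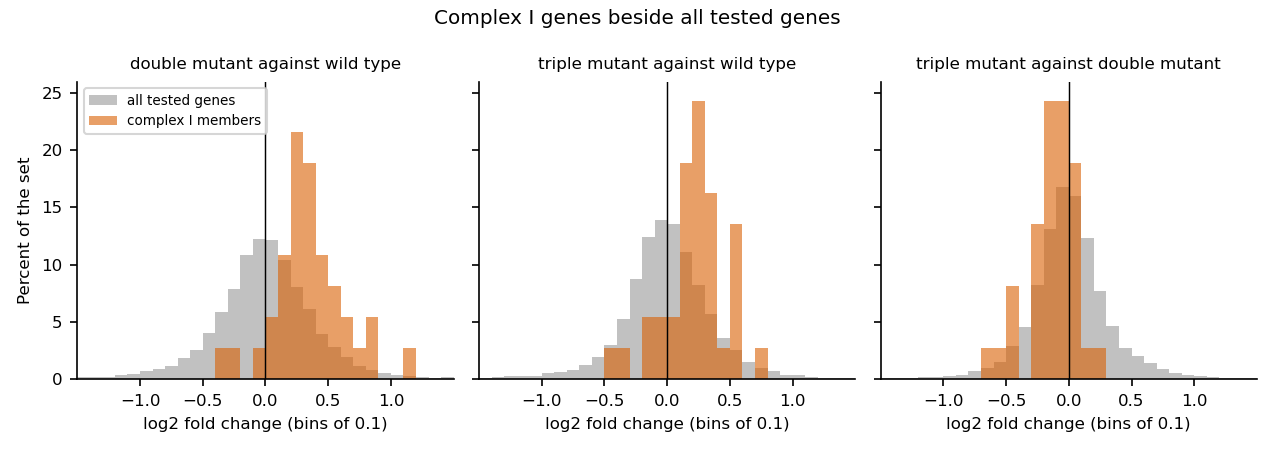
Share of genes per bin of log2 fold change, in percent, for the 37 complex I genes (orange) and all tested genes (grey), 1 panel per comparison. Of the complex I genes, 34, 31 and 9 lie above 0 from left to right, while 49.5%, 49.6% and 49.8% of all tested genes do. The axis ends before the few genes with larger changes.

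Triple mutants were also set against double mutants, per the design text, to find what differs when the Nkx2-5 modifier is present. According to the authors' deposited table Ndufc2 fell 1.38-fold in the triple mutant (q = 0.0321), and no complex I gene rose. The median log2 fold change was -0.12 over the 37 genes and -0.0011 over all 12786 tested genes, and 28 of the 37 genes had a negative value. The single call is 2.7% of the complex I genes, against 1.25% of all tested genes called and 0.547% called lower, so the count of calls lies near the background. An unadjusted p-value under 0.05 was listed for 5 genes, all lower (13.5%), against 8.45% of all tested genes. The call of Ndufc2 is lost with the genes in shared loci left out, since its own locus is shared.

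The arms differed in their medians, a difference that was not tested. In the peripheral arm the median was -0.06, and 6 of 16 genes were positive. In the proximal membrane arm it was -0.13, with 1 of 9 positive, and in the distal membrane arm -0.18, with 1 of 10 positive. The 5 genes with an unadjusted p-value under 0.05 were Ndufc2, Ndufb4, Ndufb8, Ndufs5 and Ndufa4, and none of them belongs to the peripheral arm. Beside Ndufc2, their log2 fold changes were -0.65 for Ndufb4 (q = 0.361), -0.55 for Ndufs5 (q = 0.364), -0.48 for Ndufa4 (q = 0.123) and -0.43 for Ndufb8 (q = 0.31) in the authors' deposited table.

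The core genes of the peripheral arm lay close to 0. In the authors' deposited table their log2 fold changes ran from -0.13 (Ndufs8) to 0.11 (Ndufs7), and Ndufv1 and Ndufv2 stood at -0.04 and 0.01. The highest values of the complex belonged to Ndufa9 (0.27, q = 0.548), Ndufs7 (q = 0.895) and Ndufb5 (0.07, q = 0.969) there.

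The other genes that build or supply complex I were taken from lists. The mitochondrial genes for the membrane arm core, mt-Nd1 to mt-Nd6 with mt-Nd4l, are all 7 listed at 0 without an estimate, so the mitochondrially encoded core has no value here. Of 17 assembly factors 16 were found in the table, and all 16 were tested against wild type. In the double mutant 13 of the 16 were higher and 1 was called, with a median log2 fold change of 0.17. In the triple mutant 12 of the 16 were higher and 1 was called, with a median of 0.19, beside 49.6% higher and 1.52% called. At such shares, 1 call among 16 genes says little about the assembly factors. The called gene was Tmem126b in both, a factor that builds the membrane arm, with an FPKM in the authors' deposited table of 24.1 for wild type, 43.3 for double mutants and 34.3 for triple mutants (q = 0.0066 and 0.015).

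Regulators of mitochondrial genes showed no call among the 6 tested. The share of all tested genes called was 2.65% in double mutants and 1.52% in triple mutants, each beside wild type, and 1.25% between the mutants. At such shares, the lack of a call among 6 genes says little about the regulators. Of 8 listed, the coactivator Ppargc1a and the receptor Esrrg lacked an estimate in every comparison. The 6 tested had a median log2 fold change of 0.10 for double mutants and -0.02 for triple mutants, each against wild type. Nrf1, whose factor binds the NRF1 motif, was at 25.8, 18.1 and 20.6 in wild type, double and triple mutant of the authors' deposited table. Gabpa was at 37.6, 44.5 and 41.7 there, Esrra at 47.1, 39.5 and 36.4, and Yy1 at 27.5, 29.6 and 25.2, in the same order.

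Genes of complex III, complex IV and ATP synthase were set beside these values, and complex II was not analysed here. In the double mutant against wild type the median log2 fold change was 0.39 over 9 complex III genes, 0.37 over 12 tested complex IV genes and 0.41 over 12 tested ATP synthase genes, beside 0.33 for complex I. Calls there numbered 3, 4 and 1, all higher, while 2.65% of all tested genes were called. Cox4i1, Cox6c, Atp5a1, Atp5b and Atp5o were not tested for lack of an estimate, so the medians leave them out. In the triple mutant against wild type the medians were 0.26, 0.32 and 0.23, beside 0.22 for complex I. Cox5a and Cox6b1 were called higher, beside 1.52% of all tested genes called. Between triple and double mutant the medians were -0.13, -0.16 and -0.14, beside -0.12. Cox8b and Atp5j2 were called lower, beside 1.25% of all tested genes called. The complex I median was thus the lowest of the 4 in both comparisons with wild type, by margins that were not tested. Mitochondrial ribosomal protein genes, which serve the synthesis of the mitochondrial subunits, had smaller medians of 0.12 over 79 genes, 0.13 over 76 and 0.01 over 78 in the same order of comparisons.

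**Figure D4:**
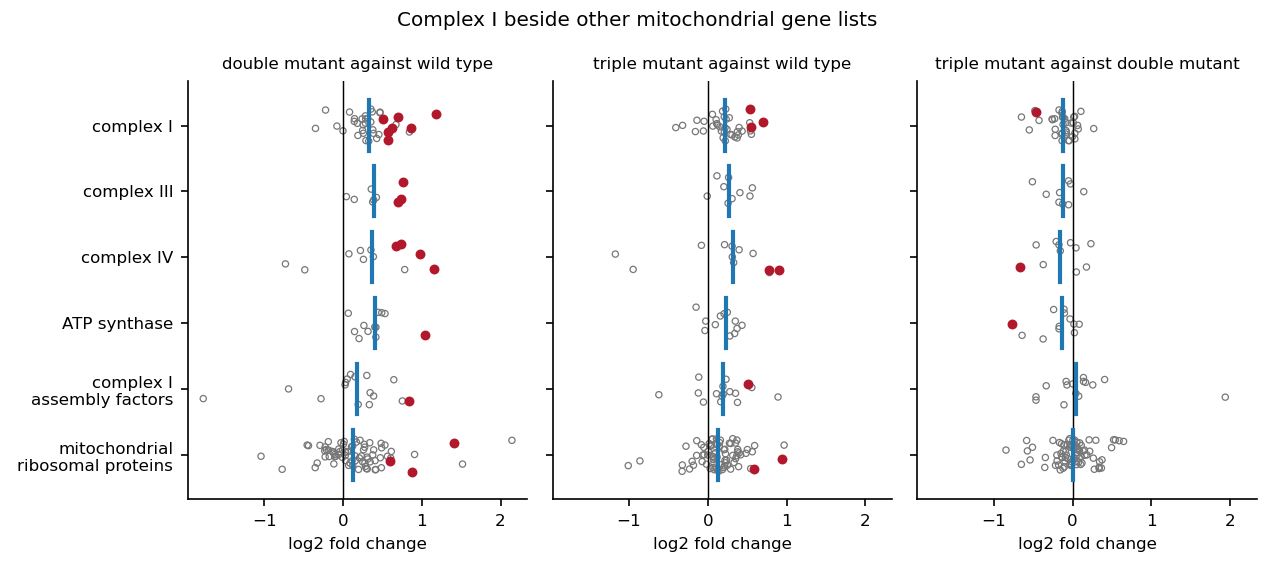
The log2 fold change of every tested gene in 6 lists, 1 panel per comparison, with called genes as filled red points, other genes as open circles and the median of each list as a blue bar. The points are spread at random within a list's row so that they can be told apart. The blue bars of complex I, III, IV and ATP synthase lie between 0.33 and 0.41 in the left panel.

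Several properties moved with these differences, and their part in them was not tested. Complex I transcripts are short, with a median length of 782 bases by GENCODE M21 against 2564 over all tested genes. Over 8 bins of length, the median log2 fold change of all tested genes in the double mutant against wild type was 0.08 in the shortest bin and -0.09 in the longest. The 23 complex I genes of that shortest bin had a median of 0.29. With each gene set against the median of its length bin, the complex I median was 0.27 for double mutants and 0.15 for triple mutants, each against wild type, and -0.09 between the mutants. These compare with 0.33, 0.22 and -0.12 as deposited.

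**Figure D5:**
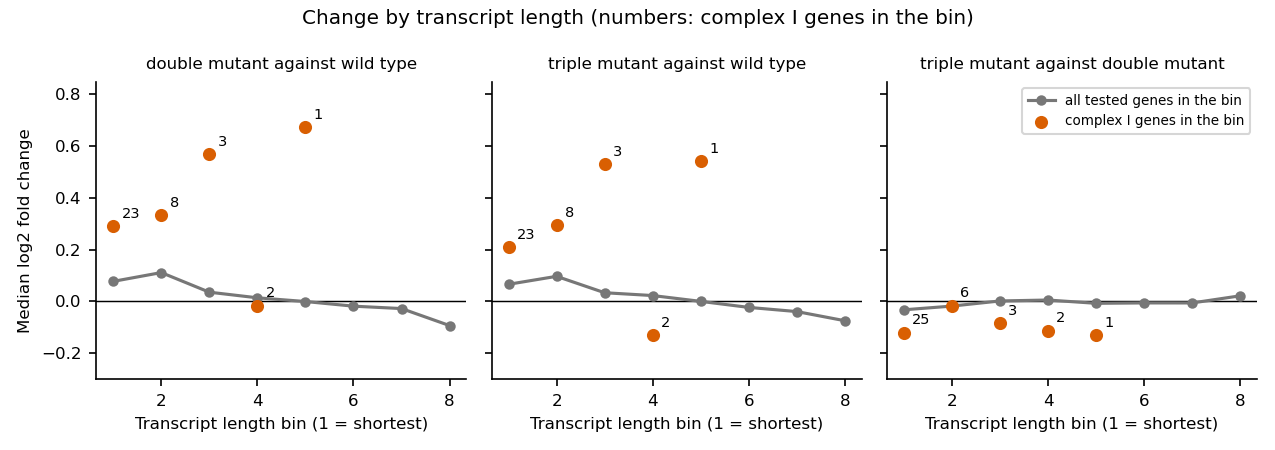
Median log2 fold change by bin of transcript length, from the shortest to the longest of 8 bins, for all tested genes (grey line) and for the complex I genes in the bin (orange points, with their number). In the 2 shortest bins, which hold 31 of the 37 genes in the comparisons with wild type, the orange points lie above the grey line in those comparisons.

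The Y-linked genes differed between the groups as well. The summed FPKM of Ddx3y, Uty, Kdm5d and Eif2s3y was 21.9 for wild type, 73.8 for double mutants and 54.2 for triple mutants, an order that most complex I genes also had. In the authors' deposited table Ddx3y was called higher in both mutants (q = 0.0066 each) and Uty in the double mutant (q = 0.0066), whereas Kdm5d and Eif2s3y were not called. Xist was at 1.21 FPKM for double mutants and 88.2 for triple mutants there, a called difference (log2 fold change 6.18, q = 0.0066). In wild type it had no estimate, the mark for too many fragments. The labels give no sex, so a difference in the mix of sexes and the genotype cannot be told apart in these groups. The X-linked members are Ndufa1 and Ndufb11. Ndufa1, a small membrane subunit, was at 80.0 FPKM for wild type, 104 for double mutants and 88.9 for triple mutants in the authors' deposited table, and Ndufb11 at 70.6 FPKM for wild type, 86.5 for double mutants and 73.9 for triple mutants, in a locus shared with Rbm10. Neither was called in any comparison.

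Among the atrial markers and the markers of other cell types, Nppa and Acta2 were called. Those tested were 2 atrial, 5 endothelial, 4 fibroblast, 4 smooth muscle and pericyte, 3 macrophage, 3 erythroid and 1 brown fat marker. Of all tested genes, 2.65% were called in double and 1.52% in triple mutants, each against wild type, and 1.25% between the mutants. At such shares, the few calls among these markers say little about the other cell types. Nppa, a natriuretic peptide gene of the atria that stressed ventricle also expresses, was at 919, 505 and 829 FPKM for wild type, double and triple mutants in the authors' deposited table. It was called lower in double mutants than in wild type and higher in triple than in double mutants. Acta2, smooth muscle actin, was called higher in triple than in double mutants. The summed FPKM of the 5 endothelial markers was 478.1, 478.3 and 420.4 in the same order, that of the 4 fibroblast markers with an estimate 405, 451 and 372, and that of the 4 macrophage markers 18.8, 21.3 and 18.7. The 4 smooth muscle and pericyte markers summed to 463, 473 and 495, and the 4 erythroid markers to 334, 366 and 348. The 2 brown fat markers summed to 9.58, 11.1 and 11.3, and the skeletal muscle markers with an estimate to 0, 0.58 and 0. A difference in cardiomyocyte content between the groups had no measure here, because the 9 cardiomyocyte markers lack an estimate in every comparison.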

How the data were processed

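RNA-seq of mouse ventricle was deposited as gene-level Cuffdiff output. The submitters' processing notes name Cuffdiff 2.2.1, Cufflinks 2.2.1, STAR 2.5.2, CASAVA 1.8 and the mm9 build. Which annotation, normalization and libraries were used is not stated. Prefixes of the sample descriptions that recur in every group could enter no test without values per sample. The authors deposited 1 FPKM per gene and group. The authors also deposited a log2 fold change, a test statistic (a score), a p-value and a q-value for each of 3 comparisons.

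Each deposited log2 fold change is the log2 ratio of the 2 group values (largest difference 8.82e-06 among complex I genes). Adjusting the deposited p-values of all 3 comparisons together by Benjamini-Hochberg gives the deposited q-values (largest difference 5.26e-07). The lowest p-value is 5e-05, the lowest q-value 0.0066, and the authors mark significance up to a q-value of 0.1. The p-values reach no further than the libraries entered, and the spread between those libraries may be technical.

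Genes, lists and alternatives were chosen with earlier results of these data known. Values in full were given for called genes, the 3 highest and 3 lowest log2 fold changes per comparison, the 3 highest and 3 lowest mean FPKM and the 7 core subunits. Other genes were added where a sentence turned on them. The values of 1 gene are not reported here, although counts and medians include it. Counts and medians were computed in Python 3.11.15 with pandas 2.3.3 and scipy 1.17.1, and the adjustment was tested on simulated data. No new test across genes was run, and a list has no test of its own. Loci start from 0 (end minus start equals the GENCODE M21 gene span in 42.5% of 32900 genes), so start plus 1 is printed. Loci whose coordinates recur under another symbol are called shared, which holds for 11 of the 37 genes. Promoter windows are in GRCm38.p6, and all other coordinates in mm9.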

Additional observations from a re-analysis of the deposited data

How the results depend on the processing

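The median log2 fold change of complex I genes kept its sign under each of 7 alternatives (group-sum scaling, centring on all genes, centring by length, a pseudocount of 1, an FPKM of at least 5, without Ndufa4, without shared loci). Not all of these could have changed it. The FPKM filter left out none of the 37 genes, and a pseudocount cannot reverse the sign of a gene's ratio. The median ran from 0.27 to 0.34 for double mutant against wild type, from 0.15 to 0.23 for triple mutant against wild type and from -0.12 to -0.08 for triple against double mutant. At the authors' threshold of 0.1, the count called for triple mutant against wild type was 5 in place of 3, with 2.75% of all genes called. Without shared loci the count for triple against double mutant was 0 in place of 1. With normal p-values of the deposited statistic, an alternative chosen after seeing the data, the counts were 0 in each comparison in place of 7, 3 and 1. Adjusting q-values within each comparison and leaving out Ndufa4 kept each count within 1.5 times. An FPKM of at least 5 left out no complex I gene, so it could not change a count. Leaving out single hearts could not be run without values per sample. No paired analysis was possible because the table carries 1 value per group and no replicate. The depth behind each FPKM is unknown.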
